A study of Homo sapiens with 6 samples.

Results

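The genes described here build and drive the mitotic spindle. They are 58 listed human genes for mitotic cyclins and kinases, kinetochore and centromere proteins, the spindle checkpoint, spindle motors and the machinery of chromosome separation and cytokinesis, out of 22580 genes with enough reads to be tested. Each of the 58 was found in the libraries and each was tested. They were measured by RNA-seq in A375, an established human melanoma line, kept as 6 separate cultures. The 3 treated cultures (replicates 4, 5 and 6) received hMGL for 24 h, and the 3 control cultures (replicates 1, 2 and 3) were left untreated. hMGL is an engineered human enzyme that degrades methionine, the amino acid from which cells make the methyl donor S-adenosylmethionine. Both groups came from the same line in serum-containing medium, so a single line stands behind every value, and the cultures are its replicates.

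Entry into mitosis is set by CDK1 bound to cyclin B, which WEE1 and PKMYT1 hold in check by phosphorylation and CDC25 phosphatases release. Aurora and Polo-like kinases then organise the spindle poles and the centromeres, kinetochores attach chromosomes to microtubules, and the checkpoint blocks the ubiquitin ligase APC/C until attachment is complete. Most of these genes are transcribed late in the cell cycle, through promoters with a CHR element, read by the MuvB proteins of the DREAM and MYBL2 complexes, and CCAAT boxes, read by NF-Y. In bulk RNA, fewer cells in G2 and M phase and less of each mRNA per cell cannot be told apart, and this holds for every level below.

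The libraries held 50760266 to 53682075 estimated read counts in treated cultures and 53441686 to 59954677 in control cultures. Over all genes tested, log CPM (CPM being read counts per 1000000, after scaling between libraries) correlated at Pearson r = 0.990 within a group and 0.940 to 0.943 between groups, and no library stood apart from its group. The response was wide: 69.4% of all genes tested passed an adjusted p of 0.05 in edgeR's quasi-likelihood test, 34.5% with lower and 34.9% with higher levels in treated cultures, and the median log2 fold change over all genes was −0.015. Of 9 melanoma markers, SOX10, a neural crest transcription factor, stood at 345 to 357 CPM in treated and 395 to 453 CPM in control cultures, while the pigment enzyme gene TYR stayed at or under 0.119 CPM in every library. The summed level of the 9 was 657 to 704 CPM in treated and 970 to 1047 CPM in control cultures (8 tested, 2 higher, 4 lower). Summed markers of other cell types were low: 4.60 to 5.12 CPM in treated against 14.4 to 16.5 CPM in control cultures for 6 fibroblast genes, 0.630 to 0.697 CPM in treated against 0.253 to 0.527 CPM in control cultures for 4 leukocyte genes, and 2.52 to 2.81 CPM in treated against 0.871 to 1.52 CPM in control cultures for 3 endothelial genes. The 5 keratinocyte genes summed to 61.9 to 63.0 CPM in treated and 44.2 to 48.4 CPM in control cultures (3 tested, 2 higher, 1 lower). Among them KRT10 had 51.9 to 53.5 CPM in treated and 28.9 to 31.0 CPM in control cultures. KRT14 went the other way, with 8.85 to 9.33 CPM in treated and 15.2 to 17.3 CPM in control cultures, and KRT1 was at 0 in every library. The part of these shifts in the results was not tested.

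After 24 h with hMGL most of the mitotic genes were lower, but by unequal amounts, and a small set was higher. Of the 58 genes, 46 fell (79.3%, against 34.5% of all genes tested), 7 rose (12.1%, against 34.9%) and 5 did not pass the test. The median log2 fold change of the 58 was −0.60, and single genes ran from −2.00 for SPC24 to 0.55 for CKAP2L. Against a change of more than 1.5-fold, 26 genes were lower, where 16.7% of all genes passed that rule, and 0 were higher, where 18.7% passed. With limma's own test past 1.5-fold on log2(TPM + 1) and log2(TPM + 0.1), 9 and 11 genes were lower. The share of all genes passing in limma is not given here, and 16.7% is not its background. The edgeR rule was glmTreat, and the largest rise among the 58 was 1.46-fold. In 46 genes the 3 treated values all lay below the 3 control values and in 7 they all lay above (36.5% and 36.7% of all genes tested). The 7 that rose were CKAP2L, BORA, SGO1, SGO2, CKAP2, BUB3 and UBE2C. The 5 that did not pass were CDC25B, AURKA, CENPA, KIF18A and ECT2. Leaving out control replicate 2 put CDC25B, AURKA and ECT2 past the threshold on the lower side. The plot of fold changes by role shows each gene with its error.

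**Figure D1:**
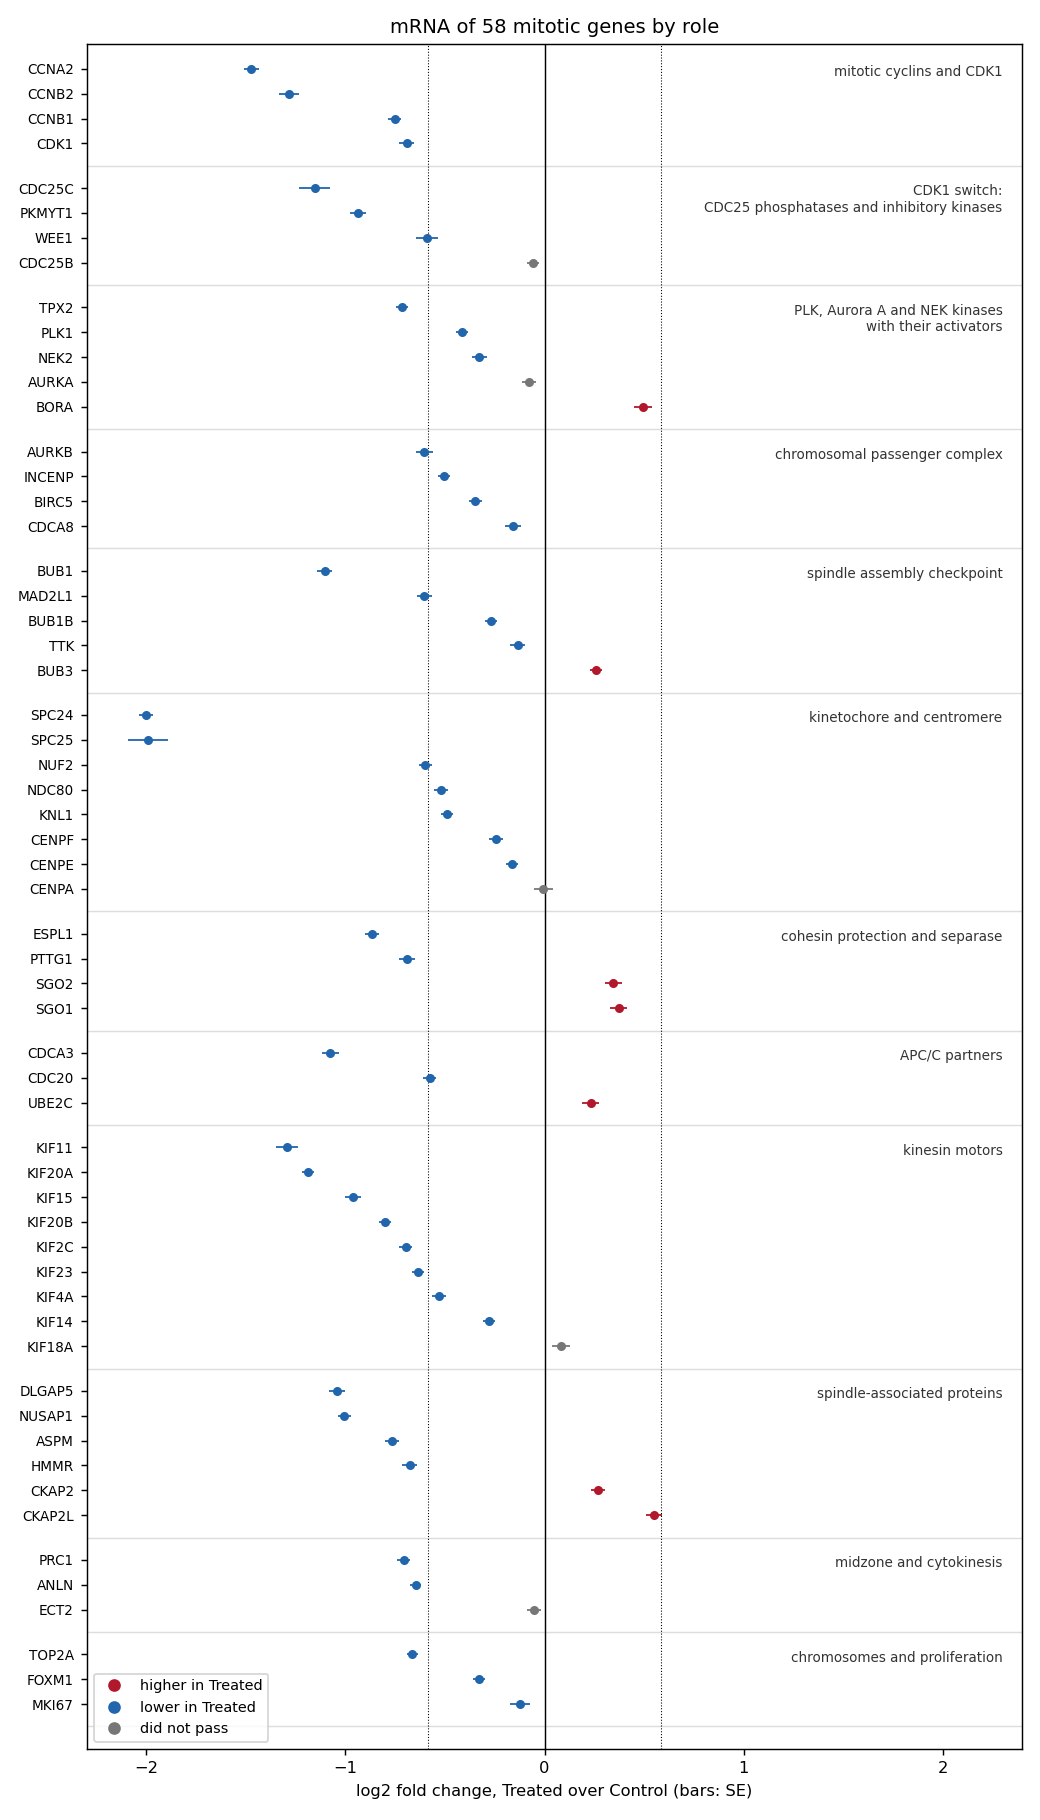
Log2 fold change (treated over control) of the 58 genes by role; points are edgeR estimates with standard error bars, red for higher, blue for lower and grey for not past the threshold, and dotted lines mark a 1.5-fold change. SPC24 and SPC25 lie furthest to the left at −2.00 and −1.99, and 7 red points lie to the right of 0.

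The promoters of the genes are shown first. Most of these genes are late-cycle genes, described above as transcribed through CHR and CCAAT letters. Shared letters are therefore not independent of how the genes were chosen, and whether they bear on the changes was not tested. RefSeq (GRCh38.p14) gave a promoter of 250 bases before to 50 after the start for 48 of the 58 genes. TTTGAA, the core letters of a CHR, was found on either strand in 33 (68.8%), against 15.2% of all 35116 promoters in the table, 10.7% of the promoters of genes tested and 1 of 31 (3.23%) for DNA replication and G1/S genes. CCAAT was found in 38 (79.2%), against 34.6% of all promoters, 36.4% of those of genes tested and 54.8% for replication genes. Both were present in 28 (58.3%), against 5.90% of all promoters and 4.46% of those of genes tested. An E2F-type motif, TTCCCGC or TTGGCGC, was found in 10 (20.8%), against 9.23% of all promoters, 13.3% of those of genes tested and 67.7% for replication genes. TTGGCGC and CCAAT on the other strand can share letters, so a stretch can count for both. A match is a run of letters, not a shown site.

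The letters were present in promoters of genes that fell and of genes that rose. Of the 39 genes that fell and had a promoter, 28 (71.8%) held TTTGAA and 31 (79.5%) held CCAAT. Of the 5 that rose, 2 (40.0%) held TTTGAA and 4 (80%) held CCAAT. The 100 bases that end just before the start are shown for CCNB2 and KIF11, which fell by more than 1.5-fold, for the SPC24 and SPC25 pair, for CENPA, which did not pass the test, and for CKAP2L and BORA, which rose. They run 5′ to 3′ on the strand of the gene, and capitals mark TTTGAA or CCAAT on either strand, so that TTCAAA and ATTGG are matches on the other strand.
CCNB2 (chr15:59105046-59105145, plus strand): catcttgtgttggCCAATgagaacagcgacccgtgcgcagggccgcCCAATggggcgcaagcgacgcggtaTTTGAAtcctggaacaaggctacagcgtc
KIF11 (chr10:92593030-92593129, plus strand): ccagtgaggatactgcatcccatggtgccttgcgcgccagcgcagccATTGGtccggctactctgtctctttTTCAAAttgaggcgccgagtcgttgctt
SPC24 (chr19:11155783-11155882, minus strand): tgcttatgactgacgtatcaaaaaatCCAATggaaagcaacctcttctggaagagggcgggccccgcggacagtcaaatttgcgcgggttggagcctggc
SPC25 (chr2:168890431-168890530, minus strand): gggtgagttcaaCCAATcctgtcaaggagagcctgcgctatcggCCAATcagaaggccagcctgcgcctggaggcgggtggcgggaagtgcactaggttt
CENPA (chr2:26785956-26786055, plus strand): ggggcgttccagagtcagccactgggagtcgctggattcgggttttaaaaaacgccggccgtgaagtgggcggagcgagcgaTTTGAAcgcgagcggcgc
CKAP2L (chr2:112764610-112764709, minus strand): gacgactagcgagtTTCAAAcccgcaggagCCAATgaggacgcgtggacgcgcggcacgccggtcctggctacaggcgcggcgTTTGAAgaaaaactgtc
BORA (chr13:72727823-72727922, plus strand): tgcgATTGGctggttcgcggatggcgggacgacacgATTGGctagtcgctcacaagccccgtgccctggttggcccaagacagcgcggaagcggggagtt
CCNB2 shows a pair of CCAAT boxes upstream of a TTTGAA, and KIF11 a single one of each, both on the other strand. CENPA, which did not change past the threshold, holds TTTGAA near its start, and CKAP2L, the gene with the largest rise, holds it on both strands in this stretch with a CCAAT between. BORA holds a pair of CCAAT boxes on the other strand and no TTTGAA in this stretch, but it has a TTTGAA further upstream, at −177. SPC24 holds a single CCAAT here. In SPC25 a TTTGAA crosses the start and another lies further upstream, so both fall outside the bases printed.

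The mitotic cyclins and their kinase fell together, cyclin A2 the most. CCNA2, the cyclin that acts from S phase into early mitosis, had 44.6, 48.0 and 45.8 CPM in treated cultures, against 133, 124 and 128 CPM in control cultures. Each treated value was below each control value by a wide margin (log2 fold change −1.47 ± 0.038 SE, adjusted p = 5.13e-16). CDK1, the kinase of mitotic entry, moved least of the 4, with 48.6, 52.2 and 49.2 CPM in treated cultures, against 81.2, 79.6 and 81.8 CPM in control cultures, and again the groups did not overlap (log2 fold change −0.69 ± 0.037 SE, adjusted p = 1.05e-11). The cyclin B genes lay between them, CCNB2 at log2 fold change −1.28 ± 0.049 SE, adjusted p = 3.14e-12 and CCNB1 at log2 fold change −0.75 ± 0.032 SE, adjusted p = 5.63e-13. All 4 were lower by more than 1.5-fold, where 16.7% of all genes passed that rule. The log2 ratio of CCNA2 to CCNB1 within a library, which does not depend on scaling between libraries, averaged −1.21 ± 0.048 in treated and −0.49 ± 0.044 in control cultures (SD, n = 3 each), a difference of −0.72. The exact two-sided permutation test gave p = 0.1, the smallest that 3 against 3 cultures allow. This pair and every pair below were chosen after their values were seen, so these p-values give no independent support.

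Among the enzymes that switch CDK1 on and off, a phosphatase and both inhibitory kinases fell, while CDC25B did not pass the test. CDC25C, a phosphatase that activates CDK1, had 5.98, 5.60 and 6.53 CPM in treated cultures, against 13.0, 14.2 and 13.2 CPM in control cultures (log2 fold change −1.15 ± 0.078 SE, adjusted p = 3.06e-10). Its treated values were all well below its control values, although its level was among the lowest of the set. CDC25B, the related phosphatase, had 118, 114 and 115 CPM in treated cultures, against 121, 118 and 123 CPM in control cultures (log2 fold change −0.06 ± 0.031 SE, adjusted p = 0.109). Its groups overlapped at the margin. Within a library, the log2 ratio of CDC25C to CDC25B was −4.27 ± 0.11 in treated and −3.17 ± 0.098 in control cultures (SD, n = 3 each). The exact two-sided permutation p was 0.1, the smallest possible. These genes are the ends of this role by fold change, so a difference in their ratio follows from the choice. PKMYT1, the membrane-bound inhibitory kinase, fell by 0.94 on the log2 scale and WEE1, its nuclear counterpart, fell by 0.59. The change of WEE1 did not pass the 1.5-fold rule, and its call ended with limma on log2 TPM (adjusted p = 0.058 and 0.0568 at pseudocounts of 1 and 0.1).

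The Polo-like and Aurora A branch had a median log2 fold change of −0.33 over 5 genes. Of these, 3 fell (60.0%, against 34.5% of all genes tested) and 1 rose (20.0%, against 34.9%). TPX2, which activates Aurora A on spindle microtubules, had 189, 199 and 201 CPM in treated cultures, against 329, 316 and 324 CPM in control cultures (log2 fold change −0.72 ± 0.031 SE, adjusted p = 6.33e-13), with no overlap between groups. BORA, the cofactor through which Aurora A activates PLK1, moved the other way, with 26.1, 26.7 and 27.4 CPM in treated cultures, against 19.5, 18.6 and 18.8 CPM in control cultures (log2 fold change 0.49 ± 0.046 SE, adjusted p = 2.7e-08). All 3 treated values of BORA were above all 3 control values. PLK1 itself fell by 0.42 and NEK2, a kinase of centrosome separation, fell by 0.33 on the log2 scale, neither past 1.5-fold. AURKA had 101, 107 and 109 CPM in treated cultures, against 112, 109.9 and 113 CPM in control cultures. Its treated values lay just under its control values without overlap, but the change did not pass the test (log2 fold change −0.08 ± 0.035 SE, adjusted p = 0.0566). The log2 ratio of BORA to AURKA was −1.98 ± 0.033 in treated and −2.56 ± 0.041 in control cultures (SD, n = 3 each; exact two-sided permutation p = 0.1, the smallest possible).

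All 4 genes of the chromosomal passenger complex, which corrects faulty attachments at the centromere, fell, and 0 of them by more than 1.5-fold. The shares of all genes tested were 34.5% and 16.7%. AURKB, its kinase, had 38.3, 41.1 and 42.6 CPM in treated cultures, against 62.8, 60.5 and 62.0 CPM in control cultures (log2 fold change −0.60 ± 0.042 SE, adjusted p = 4.78e-10). CDCA8, which encodes borealin, had 58.6, 61.6 and 65.5 CPM in treated cultures, against 70.7, 67.8 and 69.0 CPM in control cultures, and was the least changed of the 4 (log2 fold change −0.16 ± 0.041 SE, adjusted p = 0.00204). In both genes the groups did not overlap, but the step for CDCA8 was a small one, and its call ended with limma on log2 TPM (adjusted p = 0.472 and 0.475 at pseudocounts of 1 and 0.1). INCENP, the scaffold, fell by 0.51 on the log2 scale. BIRC5, which encodes survivin, had 72.9, 72.7 and 72.6 CPM in treated cultures, against 92.6, 90.3 and 94.6 CPM in control cultures (log2 fold change −0.35 ± 0.032 SE, adjusted p = 2.92e-08). The BIRC5 call depends on how reads are turned into levels: in deposited TPM, which are per length, it averaged 34.6 ± 2.28 in treated and 32.0 ± 0.743 in control cultures (SD, n = 3 each), and a fit with an offset for effective transcript length gave a log2 fold change of 0.0031 (adjusted p = 0.959). The mean effective length of its transcripts was 1603, 1550 and 1615 bases in treated cultures, against 2091, 2010 and 1954 bases in control cultures.

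In the spindle checkpoint, the level of BUB1 separated from that of its partners. BUB1, the kinase that recruits checkpoint proteins to kinetochores, had 39.6, 40.4 and 41.7 CPM in treated cultures, against 88.2, 83.5 and 89.9 CPM in control cultures (log2 fold change −1.10 ± 0.038 SE, adjusted p = 2.94e-14). BUB3, the adaptor that carries BUB1 and BUB1B to kinetochores, had 192, 196 and 199.7 CPM in treated cultures, against 169, 159 and 163 CPM in control cultures, higher in every treated culture (log2 fold change 0.26 ± 0.031 SE, adjusted p = 6.71e-07). MAD2L1, the effector that captures CDC20, fell by 0.60, BUB1B by 0.27 and the kinase gene TTK by 0.13 on the log2 scale. The TTK call did not hold without treated replicate 4 (adjusted p = 0.0597), with library totals alone (adjusted p = 0.157) or with limma on log2 TPM (adjusted p = 0.391 and 0.39). Within a library the log2 ratio of BUB1 to BUB1B averaged −1.54 ± 0.026 in treated and −0.71 ± 0.053 in control cultures (SD, n = 3 each; exact two-sided permutation p = 0.1, the smallest possible).

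At the kinetochore the 4 subunits of the NDC80 complex fell by unequal amounts, SPC24 and SPC25 more than NDC80 and NUF2. This grouping was made after the values were seen, and its link to the structure of the complex was not tested. In this complex NDC80 and NUF2 form the end that holds microtubules, and SPC24 and SPC25 form the end that binds the inner kinetochore. SPC24 had 30.0, 31.5 and 29.2 CPM in treated cultures, against 122, 121 and 120.0 CPM in control cultures, a 4.0-fold lower level in treated cultures (log2 fold change −2.00 ± 0.037 SE, adjusted p = 8.06e-18). SPC25, named here after its values were seen, had 2.63, 2.59 and 2.27 CPM in treated cultures, against 9.46, 10.9 and 9.48 CPM in control cultures (log2 fold change −1.99 ± 0.10 SE, adjusted p = 5.36e-12). Both were far below their control values in all 3 treated cultures, SPC25 at a much lower level. NDC80 had 28.0, 27.9 and 28.7 CPM in treated cultures, against 40.6, 40.4 and 40.2 CPM in control cultures (log2 fold change −0.52 ± 0.035 SE, adjusted p = 3.5e-10). NUF2 had 53.7, 55.6 and 55.0 CPM in treated cultures, against 84.5, 82.5 and 81.8 CPM in control cultures (log2 fold change −0.60 ± 0.034 SE, adjusted p = 2.56e-11). These partners, also named after their values were seen, fell without overlap but by much less. In the promoter stretches printed above, SPC24 and SPC25 hold CCAAT letters but no TTTGAA. Over the whole promoter, of 250 bases before to 50 after the start, SPC25 holds 2 TTTGAA and SPC24 holds 0. NDC80 and NUF2, whose stretches are not printed, each hold 1 TTTGAA and 0 CCAAT in the whole promoter. Whether these letters bear on the unequal falls was not tested.

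Ratios within a library give the same values free of the scaling between libraries, for pairs chosen after the values were seen. The log2 ratio of SPC24 to NDC80 averaged 0.099 ± 0.074 in treated and 1.58 ± 0.0045 in control cultures, and that of SPC25 to NUF2 averaged −4.46 ± 0.13 in treated and −3.06 ± 0.13 in control cultures (SD, n = 3 each; exact two-sided permutation p = 0.1 for both, the smallest possible). The ratio of SPC24 to SPC25 was 3.60 ± 0.086 in treated and 3.61 ± 0.12 in control cultures (a difference of −0.0065; exact two-sided permutation p = 0.9), and that of NDC80 to NUF2 was −0.96 ± 0.031 in treated and −1.04 ± 0.017 in control cultures (a difference of 0.08; exact two-sided permutation p = 0.1, so that this p does not set the ratios apart from each other). In TPM, a per-length level, treated cultures had NUF2 at 40.5 ± 2.47, NDC80 at 17.4 ± 1.13, SPC24 at 16.9 ± 1.78 and SPC25 at 3.35 ± 0.732, whereas control cultures had SPC24 at 61.9 ± 4.26, NUF2 at 59.1 ± 5.04, NDC80 at 22.2 ± 2.32 and SPC25 at 12 ± 1.70 (SD, n = 3 each). SPC24 and NUF2 did not differ beyond their spread in control cultures, and SPC24 and NDC80 did not in treated cultures.

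The 2 main coding transcripts of SPC24 kept similar shares of its counts: the one of 2290 bases held 48.5%, 53.6% and 54.7% in treated cultures, against 55.1%, 53.0% and 52.9% in control cultures, and the one of 833 bases held 37.9% to 38.7% in treated and 38.2% to 40.1% in control cultures.

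Among the 58 genes, the other kinetochore genes moved less, and kinetochore genes outside the 58 are given below. CENPA, the histone variant that marks the centromere and whose promoter stretch holds TTTGAA, had 23.6, 25.2 and 22.7 CPM in treated cultures, against 24.4, 23.8 and 23.8 CPM in control cultures, and its groups overlapped (log2 fold change −0.0071 ± 0.048 SE, adjusted p = 0.904). KNL1, the platform for BUB proteins, fell by 0.49, CENPF, a large late-cycle kinetochore protein, by 0.24 and CENPE, a kinetochore motor, by 0.16 on the log2 scale. The calls of CENPF and CENPE ended with limma on log2 TPM (adjusted p = 0.129 to 0.13 for CENPF and 0.306 to 0.309 for CENPE). CENPF had the highest mean of the 58 genes in CPM, which counts reads without regard to length, with 695 ± 30.6 in treated and 822 ± 28.3 in control cultures (SD, n = 3 each).

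**Figure D2:**
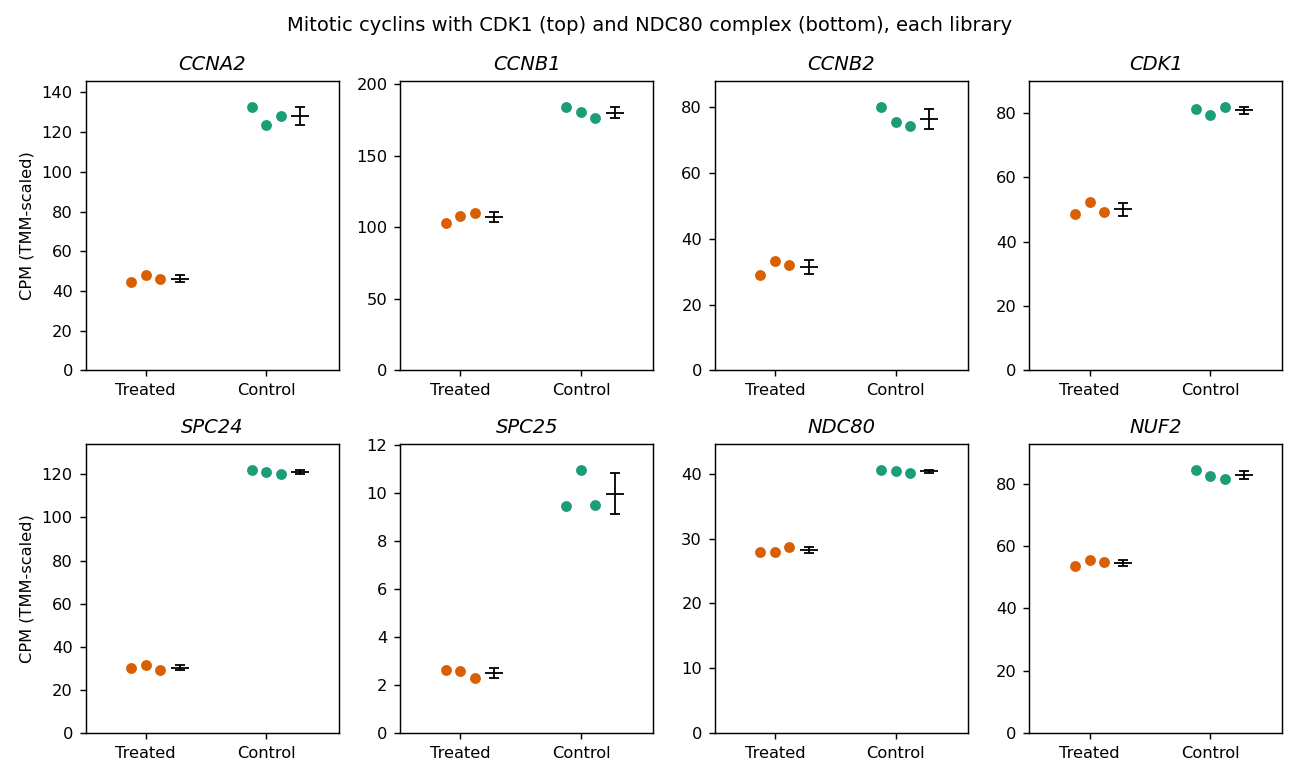
CPM of the 3 cyclin genes with CDK1 (top) and the 4 NDC80 complex genes (bottom) in each library, treated cultures left of control cultures; each point is a culture, bars give the mean and SD (n = 3 each), and each y axis starts at 0. The SPC24 points lie between 29.2 and 31.5 CPM in treated and between 120.0 and 122 CPM in control cultures, a wider gap than for NDC80 (27.9 to 28.7 CPM in treated and 40.2 to 40.6 CPM in control cultures).

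Of 4 genes for cohesin protection and separase, ESPL1 and PTTG1 fell (50.0%, against 34.5% of all genes tested). SGO1 and SGO2 rose (50.0%, against 34.9%). ESPL1, which encodes the protease separase, had 50.0, 50.3 and 52.7 CPM in treated cultures, against 91.2, 93.4 and 94.0 CPM in control cultures (log2 fold change −0.87 ± 0.035 SE, adjusted p = 2.18e-13). PTTG1, which encodes its inhibitor securin, fell by 0.69 on the log2 scale. SGO1 and SGO2, the shugoshins that shield centromeric cohesin from removal, rose: SGO1 had 32.7, 31.0 and 30.7 CPM in treated cultures, against 24.9, 24.2 and 23.9 CPM in control cultures (log2 fold change 0.37 ± 0.042 SE, adjusted p = 3.77e-07), and SGO2 had a log2 fold change of 0.34. Neither shugoshin overlapped its control values. Within a library, the log2 ratio of SGO1 to ESPL1 averaged −0.70 ± 0.084 in treated and −1.93 ± 0.051 in control cultures (SD, n = 3 each). The exact two-sided permutation p was 0.1, the smallest possible. These genes have the highest and lowest fold change of this role, so a difference in their ratio follows from the choice.

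Of 3 partners of the APC/C, 2 fell (66.7%, against 34.5% of all genes tested) and 1 rose (33.3%, close to the 34.9% of all genes). CDCA3, a protein degraded through this ligase, had 20.3, 19.7 and 19.7 CPM in treated cultures, against 42.4, 43.9 and 39.5 CPM in control cultures (log2 fold change −1.08 ± 0.044 SE, adjusted p = 2.82e-13). UBE2C, the ubiquitin-conjugating enzyme that starts chains for it, had 114, 129 and 128 CPM in treated cultures, against 109, 105 and 103 CPM in control cultures (log2 fold change 0.23 ± 0.044 SE, adjusted p = 0.000334). CDCA3 was lower and UBE2C higher in all 3 treated cultures, without overlap. CDC20, the activator that the checkpoint holds back, fell by 0.58 on the log2 scale.

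Of 9 kinesin genes 8 fell (88.9%, against 34.5% of all genes tested). By more than 1.5-fold 6 were lower, where 16.7% of all genes passed. KIF11, the motor that pushes the spindle poles apart, had 99.6, 101 and 87.1 CPM in treated cultures, against 243, 231 and 231 CPM in control cultures (log2 fold change −1.29 ± 0.056 SE, adjusted p = 6.67e-08). Replicate 6 was the lowest of its treated cultures, and all 3 were far below control. KIF18A, which damps chromosome movements on the spindle, had 30.2, 29.6 and 31.9 CPM in treated cultures, against 30.0, 28.8 and 27.6 CPM in control cultures, with overlapping groups (log2 fold change 0.08 ± 0.044 SE, adjusted p = 0.102). Scaling by library totals alone, counting coding transcripts only, or leaving out treated replicate 4 or 5 or control replicate 1, moved KIF18A past the threshold on the higher side. Among the others, KIF20A, which carries the passenger complex to the midzone, fell by 1.19, KIF15, a motor that backs up KIF11, by 0.96, KIF20B by 0.80, the microtubule depolymerase gene KIF2C by 0.70 and the midzone motor gene KIF23 by 0.64 on the log2 scale. KIF4A fell by 0.53 and KIF14 by 0.28, both short of the 1.5-fold rule, and the KIF14 call ended with limma on log2 TPM (adjusted p = 0.0858 and 0.0856).

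Among spindle-associated proteins 4 fell (66.7%, against 34.5% of all genes tested) and the 2 CKAP2 family genes rose (33.3%, close to the 34.9% of all genes). DLGAP5, which stabilises kinetochore fibres, had 42.2, 45.2 and 44.5 CPM in treated cultures, against 93.0, 87.6 and 90.9 CPM in control cultures (log2 fold change −1.04 ± 0.038 SE, adjusted p = 5.85e-14). CKAP2L, which associates with spindle microtubules, had 81.8, 85.8 and 84.7 CPM in treated cultures, against 59.8, 54.8 and 57.7 CPM in control cultures, 1.46-fold higher in treated cultures (log2 fold change 0.55 ± 0.038 SE, adjusted p = 4.78e-10). Its relative CKAP2 had 169, 178 and 183 CPM in treated cultures, against 153, 142 and 145 CPM in control cultures (log2 fold change 0.27 ± 0.036 SE, adjusted p = 3.3e-06). Neither gene overlapped between groups, and CKAP2L had the largest rise of the 58. NUSAP1, a microtubule bundler, fell by 1.01, the spindle pole gene ASPM by 0.77 and HMMR by 0.68 on the log2 scale.

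Of 3 genes for the midzone and cytokinesis, PRC1 and ANLN fell (66.7%, against 34.5% of all genes tested). PRC1, which crosslinks the antiparallel microtubules of the midzone, had 153, 159 and 164 CPM in treated cultures, against 264, 254 and 258 CPM in control cultures (log2 fold change −0.71 ± 0.032 SE, adjusted p = 1.14e-12), and ANLN, a scaffold of the contractile ring, fell by 0.65 on the log2 scale. ECT2, the exchange factor that switches on RhoA for the ring, had 96.6, 97.1 and 100.1 CPM in treated cultures, against 102, 97.7 and 105 CPM in control cultures. Its groups overlapped (log2 fold change −0.05 ± 0.034 SE, adjusted p = 0.181).

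TOP2A, which untangles chromosomes, had 327, 331 and 337 CPM in treated cultures, against 531, 514 and 532 CPM in control cultures (log2 fold change −0.66 ± 0.027 SE, adjusted p = 3.13e-13), without overlap. MKI67, which encodes the Ki-67 protein that coats mitotic chromosomes and is widely stained as a proliferation marker, had 383, 423 and 436 CPM in treated cultures, against 464, 434 and 455 CPM in control cultures. Its groups overlapped, and its adjusted p of 0.04999 was at the threshold (log2 fold change −0.12 ± 0.049). Leaving out any library other than treated replicate 6 ended the MKI67 call (adjusted p 0.0912 to 0.208), as did library totals alone (0.257), coding transcripts only (0.12) and limma on log2 TPM (0.466 and 0.469). FOXM1, a transcription factor for late-cycle genes, fell by 0.33 on the log2 scale, to 157 to 165 CPM in treated cultures against 198 to 208 CPM in control cultures.

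Other genes of mitosis, grouped in lists that hold 130 genes tested, gave 87 that fell (66.9%, against 34.5% of all genes tested), 26 that rose (20.0%, against 34.9%) and 17 that did not pass, with a median log2 fold change of −0.28. With limma on log2 TPM at either pseudocount, 53 were lower, a count to which the edgeR share of 34.5% does not apply. Of 15 genes of the inner kinetochore, 10 fell and 2 rose (median −0.67). At its ends, CENPH averaged 12.4 ± 0.0237 CPM in treated and 48.2 ± 2.21 CPM in control cultures (log2 fold change −1.96 ± 0.044 SE, adjusted p = 9.54e-17), and CENPL 47.6 ± 1.12 CPM in treated and 17.0 ± 1.27 CPM in control cultures (log2 fold change 1.48 ± 0.048 SE, adjusted p = 2.52e-14). Of 15 genes for the MIS12 and RZZ complexes and the outer kinetochore, 12 fell and 2 rose (median −0.56). ZWINT, which binds KNL1, was the lowest (log2 fold change −1.30 ± 0.035 SE, adjusted p = 8.88e-16). MAD2L1BP, whose product helps TRIP13 take MAD2 complexes apart, was the highest of all 130, at 69.4 ± 0.622 CPM in treated and 16.0 ± 0.133 CPM in control cultures (log2 fold change 2.11 ± 0.037 SE, adjusted p = 4.83e-18). All means are given with SD, n = 3 each.

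The 8 augmin genes, whose complex branches microtubules within the spindle, split into 6 that fell and 2 that rose (median −0.67), with HAUS4 at −1.89 and HAUS3 at 1.15 on the log2 scale. Of 19 condensin and cohesin genes 14 fell and 3 rose (median −0.42). The condensin gene NCAPH had a log2 fold change of −1.60, and WAPL, which releases cohesin from chromosomes, had 0.64. Of 17 genes for APC/C subunits and inhibitors 9 fell (52.9%, against 34.5% of all genes) and 5 rose (29.4%, against 34.9%; median −0.10), 0 of them lower by more than 1.5-fold, with the activator gene FZR1 at −0.52 and the subunit gene ANAPC13 at 1.35. All 4 genes for loading CENP-A fell (median −0.35), OIP5 at −0.63 and HJURP at −0.12. Of 13 centrosome genes 8 fell and 2 rose (median −0.19), with the gamma-tubulin gene TUBG1 at −0.78 and the centriole gene STIL at 0.53.

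Among 10 genes of the DREAM and MuvB complexes, 5 fell and 3 rose (median −0.16), shares not far from those of all genes tested (34.5% lower and 34.9% higher). MYBL2, which turns MuvB into an activator of mitotic genes, averaged 71.0 ± 0.783 CPM in treated and 246 ± 5.89 CPM in control cultures (log2 fold change −1.79 ± 0.031 SE, adjusted p = 4.13e-18). LIN9, a core MuvB subunit, was higher (log2 fold change 1.15 ± 0.079 SE, adjusted p = 1.32e-09). Of 8 phosphatase genes for mitotic entry and exit 6 fell and 2 rose (median −0.20), ENSA at −0.35 and CDC14A at 0.79. Of 21 other late-cycle genes 13 fell and 5 rose (median −0.13), with the lamin gene LMNB1 at −1.73 and GAS2L3 at 1.08.

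DNA replication and G1/S genes, a list of 35, give the scale of the earlier cell cycle stage in the same libraries. Of these, 33 fell (94.3%, against 34.5% of all genes tested) and 2 rose (5.71%, against 34.9%). By more than 1.5-fold 29 were lower, where 16.7% of all genes passed. The median log2 fold change was −0.60 for the 58 mitotic genes, against −1.19 for this list. The ends were CCNE2, a cyclin of S phase entry, at −3.47, and GINS3, a subunit of the replicative helicase, at 1.02. No list was tested as a set, and the difference between lists was not tested.

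**Figure D3:**
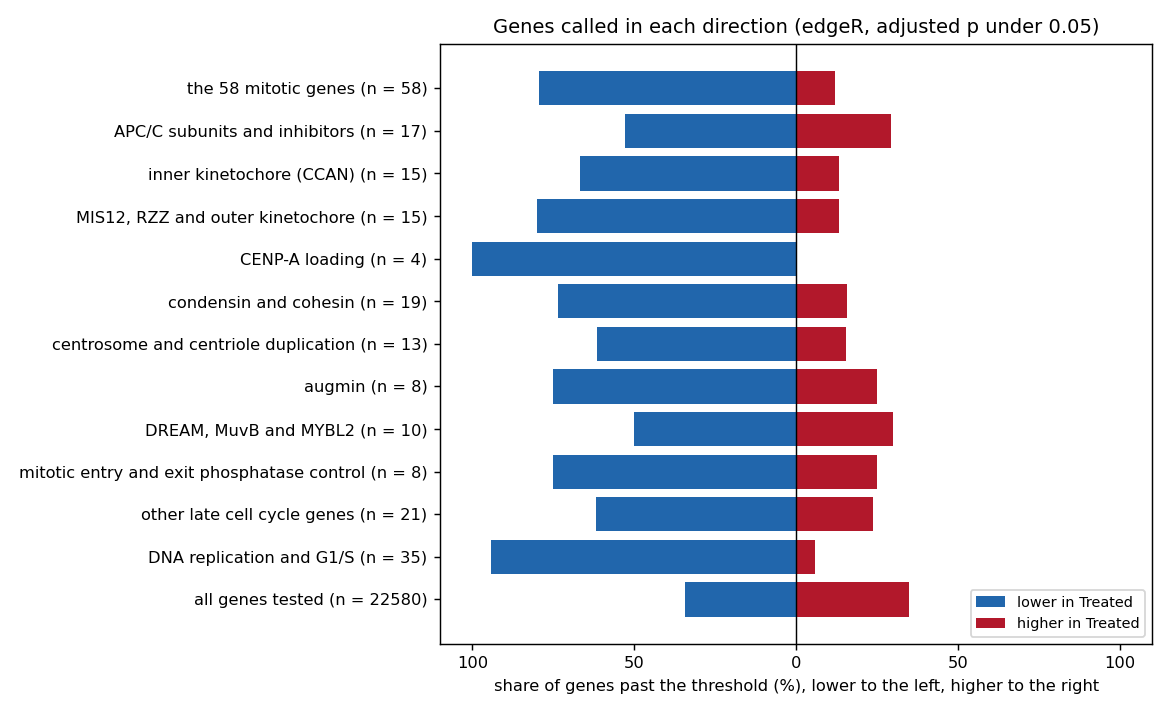
Percent of genes in each list past an adjusted p of 0.05 (edgeR), lower in treated cultures drawn to the left and higher to the right, with all 22580 genes tested in the bottom bar. The 58 mitotic genes stand at 79.3% lower and 12.1% higher, against 34.5% and 34.9% of all genes.

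Gene totals hid some shifts between transcripts. Coding transcripts held a median of 96.3% of a gene's counts in treated and 96.5% in control cultures, and in 53 of the 58 genes that share moved by less than 5 percentage points. In PTTG1 the coding share was 40.2% in treated and 60.3% in control cultures. A processed transcript of 670 bases with no annotated reading frame held 12.8%, 25.6% and 24.5% of PTTG1 counts in treated cultures, against 0.670%, 0.247% and 0.463% in control cultures. The treated values were all higher, with replicate 4 lower than the others. In KIF15 the coding share was 73.2% in treated and 90.8% in control cultures, and a transcript annotated for nonsense-mediated decay held 21.1%, 31.4% and 22.7% in treated cultures, against 4.69%, 4.66% and 12.5% in control cultures. Control replicate 3 was the highest of its group but below every treated culture.

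A decay-annotated BIRC5 transcript of 648 bases held 8.54%, 9.79% and 9.18% in treated cultures, against 3.58%, 3.27% and 4.16% in control cultures, without overlap. PKMYT1 went the other way: a decay-annotated transcript held 6.67%, 6.46% and 4.40% in treated cultures, against 14.4%, 12.9% and 12.5% in control cultures. CDCA3 had 51.4% of its counts in coding transcripts in treated and 60.9% in control cultures. These shares are estimates that divide reads among overlapping transcripts, and the tables hold no error for that division, so no test was made. MAD2L1 had a low coding share in both groups, 26.6% in treated and 28.4% in control cultures. KNL1 did too, with 42.5% in treated and 40.8% in control cultures.

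**Figure D4:**
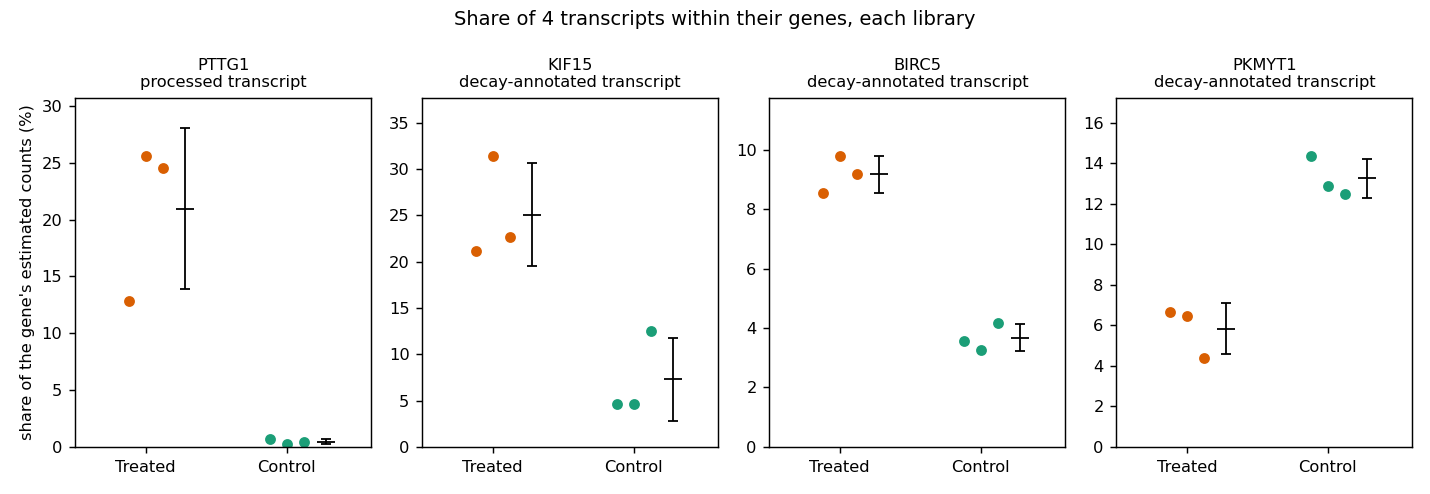
Percent of a gene's estimated counts held by each of 4 transcripts, with treated cultures left of control cultures; points are cultures, and bars give the mean and SD (n = 3 each). The PTTG1 transcript lies between 12.8% and 25.6% in treated cultures and below 1% in control cultures.

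Near copies and overlapping genes can share reads with a few of these genes. KIF4B, an intronless copy of KIF4A, reached 0.140 CPM at most, the PTTG1 copies PTTG2 and PTTG3P reached 0 and 0.0199 CPM, and UBE2CP5 reached 1.73 CPM. An unnamed gene on the strand of PRC1 that overlaps it had 12.6 to 16.4 CPM in treated and 21.5 to 22.4 CPM in control cultures. TMEM42, which overlaps KIF15, had 11.1 to 12.5 CPM in treated and 5.90 to 6.33 CPM in control cultures, and SLC35F6, which overlaps CENPA, had 70.7 to 74.4 CPM in treated and 63.5 to 66.2 CPM in control cultures. SGO1-AS1, antisense to SGO1, had 3.06 to 3.76 CPM in treated and 2.86 to 3.31 CPM in control cultures. In all, 23 of the 58 genes overlap an annotated gene on the opposite strand. Whether the libraries keep strand is not stated, and without it reads from such a pair cannot be told apart.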

How the data were processed

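RNA from 6 A375 cultures was sequenced, and the authors deposited a kallisto table per culture with an estimated count, an effective length and a TPM value for each of 244939 transcripts, per the file headers. TPM in the deposited tables is a per-length level with a fixed total per library. kallisto 0.45.0 and DESeq2 1.30.0 are named in the submitters' processing notes. The index, its build and the strand setting are not given in the sources used here. Transcripts were matched to GENCODE 29 (GRCh38): 203436 matched, and the unmatched ones held 4.86% to 5.13% of a library's counts and were left out.

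Estimated counts were summed per gene, rounded to whole numbers, filtered with filterByExpr (minimum count 10, minimum total 15), scaled by TMM and tested in edgeR 4.0.16 (R 4.3.3) with glmQLFit (robust) and glmQLFTest, two-sided, without covariates. The Benjamini-Hochberg adjustment covered the whole table of 22580 genes, and the threshold was 0.05. glmTreat on the same fit tested changes beyond 1.5-fold. CPM are per effective library size. The fit was checked on simulated counts. Alternatives were DESeq2 1.42.0, limma 3.58.1 on log2 TPM, other scalings and filters, a length offset, coding transcripts alone and leaving out each culture. Depth was 50760266 to 59954677 estimated counts per library. P-values measure the spread between cultures of a single line.

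The genes and the lists were chosen with earlier results of these data known, so no list was tested as a set. In each role the genes with the lowest and highest fold change are given in every library, and in each other list the lowest and highest among those past the threshold. Genes outside that rule (SPC25, NDC80, NUF2, CCNB1, CCNB2, PKMYT1, WEE1, AURKA, BIRC5, SGO2, PTTG1, CKAP2 and the remaining members) are named because every member is accounted for, and those with values in every library among them were chosen after their values were seen. The pairs for ratios and the transcripts were also chosen after the values were seen.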

Additional observations from a re-analysis of the deposited data

How the results depend on the processing

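Under 15 alternatives, 45 of the 58 genes (38 lower and 7 higher) kept both direction and side of the threshold, and 13 did not in at least 1. The count of genes lower by more than 1.5-fold was 26, but 9 with limma on log2(TPM + 1) and 11 on log2(TPM + 0.1). The median log2 fold change of the 58, −0.60, was −0.52 with library totals alone, −0.63 with upper-quartile scaling, −0.46 with limma at either pseudocount, −0.57 with an offset for effective length and −0.55 with protein-coding transcripts only. Leaving out a library gave −0.60 to −0.54, with 44 to 48 genes lower and 7 to 8 higher. Of the 130 other genes of mitosis, 87 were lower, but 53 with limma at either pseudocount. The shares of all genes called in the limma fits are not given here. Their median, −0.28, was −0.20 with library totals, −0.31 with upper-quartile scaling, −0.13 with limma at either pseudocount and −0.24 with the length offset, and −0.29 to −0.23 when a library was left out. TPM divides by effective lengths that differed between libraries, and the cause of these differences was not tested.

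Directions turned in 5 genes, 4 of them not called. CDC25B had a log2 fold change of 0.018 with library totals, 0.023 with limma at either pseudocount and 0.00085 with coding transcripts. AURKA had 0.051 and 0.052 with limma (pseudocounts 1 and 0.1). BIRC5 had 0.11 with limma at either pseudocount and 0.0031 with the length offset. ECT2 had 0.023 with library totals and 0.063 and 0.064 with limma. CENPA had 0.0020 with DESeq2, 0.069 with library totals, 0.0097 with no filter, 0.10 and 0.11 with limma and 0.0076 with the length offset, and ranged over −0.016 to 0.055 when a library was left out, above 0 without control replicate 1 (0.0091), treated replicate 4 (0.032) or treated replicate 6 (0.055). The limma fits also ended the calls of WEE1, CDCA8, TTK, CENPE, CENPF, KIF14 and MKI67. Library totals alone ended the calls of TTK and MKI67, and coding transcripts only ended that of MKI67. Upper-quartile scaling put CDC25B, AURKA and ECT2 past the threshold on the lower side, and so did the stricter filter for CDC25B (adjusted p = 0.0359) and AURKA (adjusted p = 0.0279). With a stricter filter of 10 CPM, CDC25C and SPC25 were not tested. No paired analysis was possible because the treated and control cultures share no replicate number. With 3 cultures a group, exact tests of a single ratio cannot go below p = 0.1.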

Other observations

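In some of the 58 genes, counts moved between coding transcripts of the same gene. CDCA8, CCNB1 and AURKA are described here and were chosen after their values were seen, and in CDCA3, CKAP2, ECT2, AURKB and NUSAP1 a pair of coding transcripts also moved in opposite directions by more than 5 percentage points without overlap between groups. Throughout, the shares are kallisto estimates without an error for the division of reads, and no test was made. CDCA8, which encodes borealin, has a coding transcript of 2371 bases that held 70.9%, 71.3% and 77.6% of its counts in treated cultures, against 47.1%, 47.9% and 48.8% in control cultures, and the other, of 2303 bases, held the rest. The groups did not overlap, and the gene total differed by a log2 fold change of −0.16.

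CCNB1, which encodes cyclin B1, has a coding transcript of 2029 bases that held 62.2%, 64.9% and 62.1% in treated cultures, against 52.9%, 48.6% and 45.8% in control cultures, and one of 1331 bases that held 36.1%, 33.5% and 36.7% in treated cultures, against 45.5%, 49.1% and 52.1% in control cultures. Both shares separated the groups. In AURKA, whose gene total did not pass the test, a coding transcript of 2112 bases held 20.4%, 16.1% and 16.3% in treated cultures, against 2.14%, 3.81% and 4.19% in control cultures. A coding AURKA transcript of 2033 bases held 41.3%, 39.4% and 46.8% in treated cultures, against 53.7%, 50.9% and 56.6% in control cultures.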
